A study of Mus musculus with 6 samples.

Results

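The genes described here are 4 C/EBP transcription factors (Cebpb, Cebpd, Cebpa and Cebpg), the PPAR nuclear receptors Pparg and Ppard, the lipase Lpl, the fatty acid transporter Cd36 and the fatty acid binding proteins Fabp3 and Fabp4. They are 10 of the 18192 genes that at least 1 probe set of the array measures alone. Probe sets were included where the platform annotation assigns them to one of the 10 genes and to no other, which gave 22 probe sets. All were kept however dim, and 1 further probe set that names Ppard together with another gene was left out. The cells were C2C12, a mouse myoblast line that fuses into contractile myotubes when serum is lowered, and every culture was kept in 2% horse serum for 28 hours. By the labels, 3 arrays hold cells transfected with an shRNA against PRDM2 and 3 hold cells transfected with a control shRNA against GFP. PRDM2 KD and GFP below mean the arrays labelled so. The labels number both sets 1 to 3 as biological replicates, and precision is limited by having 3 arrays a group.

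Fat cell formation is driven by a cascade in which C/EBP-beta and C/EBP-delta come first and switch on C/EBP-alpha and PPAR-gamma, which then keep each other active. Forced expression of PPAR-gamma and C/EBP-alpha turns cultured myoblasts towards the fat cell fate. In skeletal muscle, PPAR-delta is the PPAR best known for oxidative metabolism. There, lipoprotein lipase frees fatty acids from circulating lipoproteins, Cd36 carries them across the plasma membrane and Fabp3 binds them inside the cell, while Fabp4 is typical of fat cells and macrophages.

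Before the results, 3 facts about the arrays matter. Transcript of Prdm2, the gene targeted, was not measurably lower on the arrays labelled PRDM2 KD. Normalized log2 values of the brightest of its 3 probe sets were 6.67, 6.32 and 6.02 in PRDM2 KD replicates 1, 2 and 3, against 6.19, 6.42 and 5.94 in GFP replicates 1, 2 and 3. The log2 differences of the 3 probe sets were 0.15 (SE 0.19), 0.07 (SE 0.18) and 0.12 (SE 0.09), so each direction below rests on the labels. Secondly, GFP replicate 2 stood apart from the other GFP arrays and close to PRDM2 KD replicate 2. Over the 4548 brightest genes the median absolute deviation between those 2 arrays was 0.07 log2 units, against 0.19 for the next closest pair, so results are given with and without GFP replicate 2. Their log2 values correlated at r = 0.998 across genes, which are not independent replicates. Whether these arrays share RNA or carry exchanged labels was not tested, and either would leave fewer than 3 separate samples in a group or alter the differences below. Thirdly, the 10 skeletal muscle markers measured were all at 16 units of intensity or more on every array. Of 7 measured fat cell markers 5 (Adipoq, Lep, Cidec, Ucp1 and Pck1) stayed at or below 5.01 units on every array, while Slc2a4, the insulin-responsive glucose transporter that muscle also uses, and Retn, which encodes the hormone resistin, exceeded 16 units on all 6.

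No member gene passed the threshold. Values were compared as log2(intensity + 16) after quantile normalization, so that a reading of 0 lies at 4 log2 units and differences of dim probe sets are understated. With limma, 0 of the 22 probe sets had an adjusted p under 0.05 with all 6 arrays, as had 0% of the 45033 probe sets tested, and the smallest adjusted p of a member was 1.00. At an unadjusted p under 0.05 there was 1 of 22, a Fabp3 probe set, against 2.94% of all probe sets, and 0 of 22 with the deposited scaling, median centring, an offset of 1 or limma's trend and robust settings. The groups overlapped for each of the 22, and 3.18% of all probe sets lay wholly higher and 4.06% wholly lower on the PRDM2 KD arrays. For 22 probe sets, a count of 0 lies near those shares. The median log2 difference of the 22 probe sets, PRDM2 KD minus GFP, was 0.08, beside a median of -2.9e-05 over all probe sets. Positive differences were found for 15 probe sets and negative ones for 7, where 49.97% of all probe sets were positive. In bulk RNA, fewer cells expressing a gene and less RNA per cell cannot be told apart.

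**Figure D1:**
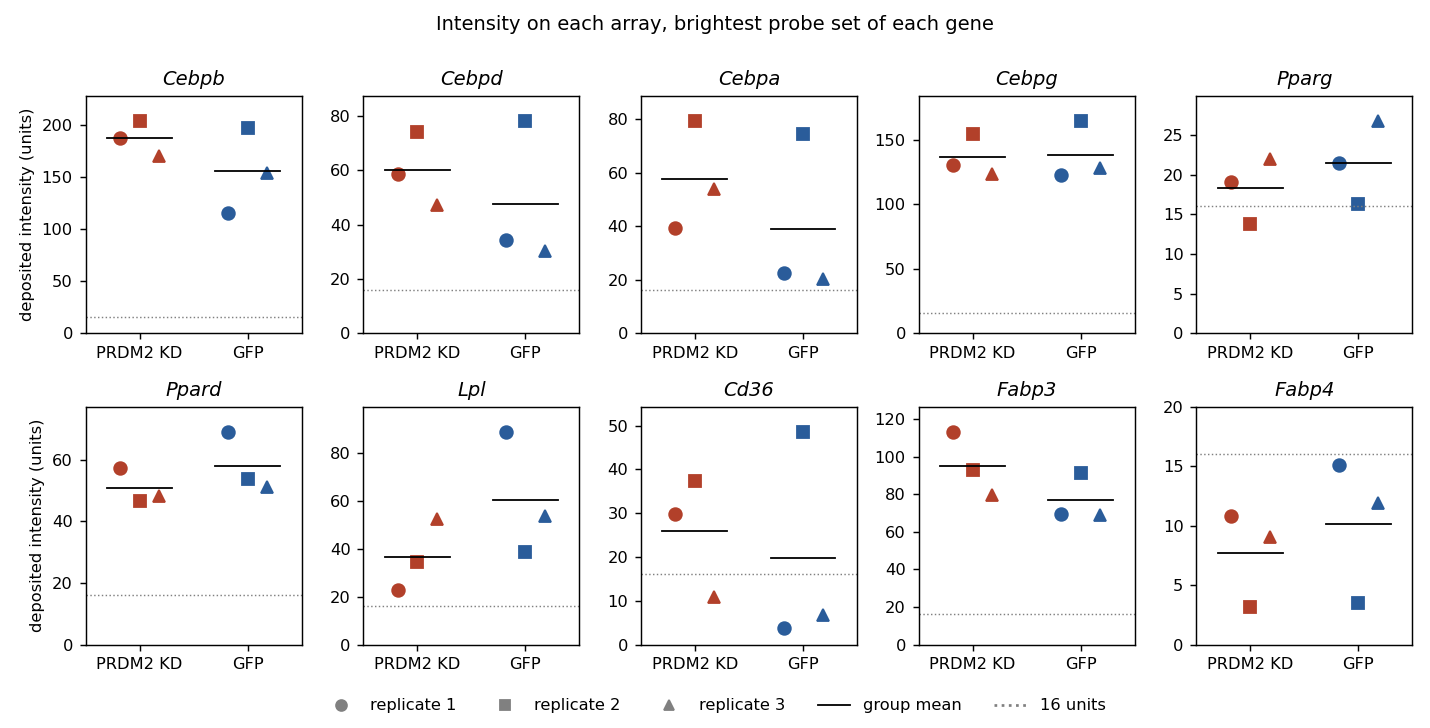
Deposited intensity on each of the 6 arrays for the brightest probe set of each gene, with PRDM2 KD left of GFP in every panel, replicate number by symbol, the group mean as a line and 16 units dotted; each panel has its own linear axis from 0. For Cebpd, Cebpa and Cd36 the square of GFP replicate 2 lies far above GFP replicates 1 and 3, and Fabp4 stays under 16 units on every array.

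Cebpb encodes C/EBP-beta, an early factor of fat cell formation that myoblasts also make. Its brighter probe set read 188, 204 and 170.4 units in PRDM2 KD replicates 1, 2 and 3, against 115, 198 and 155 units in GFP replicates 1, 2 and 3. GFP replicate 1 was the low array, and GFP replicate 2 lay within the PRDM2 KD range. The log2 difference was 0.29 (SE 0.18, 95% interval -0.13 to 0.71, n = 3 per group, limma adjusted p = 1.00), and without GFP replicate 2 it was 0.44 (SE 0.15, limma adjusted p = 0.387). Without GFP replicate 1, the low array, it was 0.096. The second Cebpb probe set had a difference of 0.21 (SE 0.15), with intensities of 38.1 to 50.7 units in PRDM2 KD cells and 27.2 to 45.8 units in GFP cells. Both probe sets were higher on the PRDM2 KD array in each of the 3 same-numbered pairs, by 0.10 to 0.60 log2 units for the brighter.

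Cebpd encodes C/EBP-delta, which acts beside C/EBP-beta early in the cascade. Its brighter probe set read 58.5, 73.9 and 47.3 units in PRDM2 KD replicates 1, 2 and 3, against 34.2, 78.0 and 30.2 units in GFP replicates 1, 2 and 3. GFP replicate 2 was the highest of the 6 arrays and GFP replicates 1 and 3 were the lowest. For this probe set the log2 difference stood at 0.35 (SE 0.26, 95% interval -0.27 to 0.96, limma adjusted p = 1.00). Without GFP replicate 2 it was 0.64 (SE 0.13, limma adjusted p = 0.141), the smallest adjusted p of the 22 probe sets in that fit. Without GFP replicate 1 it was 0.23, and without GFP replicate 3 it was 0.17. The other Cebpd probe set read at most 6.68 units and had a difference of 0.01 (SE 0.09).

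Cebpa encodes C/EBP-alpha, the late C/EBP factor that works with PPAR-gamma in fat cells, and had the largest log2 difference of the 22 probe sets with all 6 arrays. Its single probe set read 39.4, 79.2 and 54.0 units in PRDM2 KD replicates 1, 2 and 3, against 22.4, 74.4 and 20.2 units in GFP replicates 1, 2 and 3. Both arrays numbered 2 were the high ones, and GFP replicates 1 and 3 lay below every PRDM2 KD array. Cebpa thus had a log2 difference of 0.55 (SE 0.36, 95% interval -0.32 to 1.42, limma adjusted p = 1.00), and without GFP replicate 2 it was 0.95 (SE 0.22, 95% interval 0.42 to 1.48, limma adjusted p = 0.179). It was 0.32 without GFP replicate 3, 0.36 without PRDM2 KD replicate 2 and 0.38 without GFP replicate 1. By same-numbered pairs the differences were 0.48, 0.12 and 1.05 for numbers 1, 2 and 3.

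Cebpg encodes C/EBP-gamma, which pairs with other C/EBP proteins and is not specific to fat cells. Its brightest probe set read 131, 155 and 124 units in PRDM2 KD replicates 1, 2 and 3, against 123, 165 and 128 units in GFP replicates 1, 2 and 3. The groups overlapped almost fully, and the log2 difference was 0.01 (SE 0.12, 95% interval -0.28 to 0.30). That interval holds the 0.29 of the brighter Cebpb probe set, and the difference between the members was not tested. The other Cebpg probe sets stood at 0.12 (SE 0.15) and 0.13 (SE 0.13).

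Pparg, the receptor at the centre of fat cell formation, was dim and had no positive difference. Its only probe set read 19.1, 13.8 and 21.97 units in PRDM2 KD replicates 1, 2 and 3, against 21.5, 16.3 and 26.8 units in GFP replicates 1, 2 and 3. Each PRDM2 KD array was below the GFP array of its number, by 0.10 to 0.16 log2 units, but the groups overlapped. The log2 difference was -0.13 (SE 0.14, 95% interval -0.46 to 0.20, limma adjusted p = 1.00), and without GFP replicate 2 it was -0.24 (SE 0.13, limma adjusted p = 0.654). Without GFP replicate 3 or PRDM2 KD replicate 2 it was -0.031 or -0.033. Thus the probe set of Pparg and the brighter ones of Cebpb, Cebpd and Cebpa differed in sign, with none past the threshold.

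Ppard, the PPAR of oxidative muscle, read 57.3, 46.6 and 48.1 units in PRDM2 KD replicates 1, 2 and 3, against 68.9, 53.8 and 51.2 units in GFP replicates 1, 2 and 3, on its brighter probe set. Each PRDM2 KD array was again below its same-numbered GFP array, and PRDM2 KD replicate 1 exceeded 2 GFP arrays. The log2 difference was -0.12 (SE 0.11, 95% interval -0.40 to 0.15, limma adjusted p = 1.00), and without GFP replicate 1 it was -0.021. The second Ppard probe set read at most 2.47 units on any array and stood at 0.02 (SE 0.06).

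Promoter sequence is shown for Pparg and Cd36 because C/EBP factors are known regulators of the Pparg gene and because Cd36, like Cebpa, was lowest on GFP replicates 1 and 3. The sequences are from RefSeq on GRCm38.p6, 250 bases up to the base before an annotated gene start, and 7 of the 10 genes had 1 or more such windows, 9 in all. The C/EBP pattern TTGCNNAA was searched on both strands and is in capitals. The most downstream Pparg start held 2 matches, at bases -215 to -208 and -16 to -9 from the start, and the Cd36 window held 0. The windows of the more upstream Pparg starts held 0, so the Pparg window shown is the only member window with a match. The Cd36 window lies inside the annotated span of Cd36, chr5:17781690-17888959, which extends farther upstream. No window at that outer end was available, so the 0 covers this inner start alone. Which Pparg or Cd36 start these cells use was not tested.
Pparg, most downstream start, chr6:115421816-115422065, plus strand: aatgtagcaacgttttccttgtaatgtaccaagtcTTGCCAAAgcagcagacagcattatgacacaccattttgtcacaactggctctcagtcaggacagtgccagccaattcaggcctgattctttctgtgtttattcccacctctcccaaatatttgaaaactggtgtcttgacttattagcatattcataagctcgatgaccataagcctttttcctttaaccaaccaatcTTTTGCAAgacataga
Cd36, chr5:17835897-17836146, minus strand: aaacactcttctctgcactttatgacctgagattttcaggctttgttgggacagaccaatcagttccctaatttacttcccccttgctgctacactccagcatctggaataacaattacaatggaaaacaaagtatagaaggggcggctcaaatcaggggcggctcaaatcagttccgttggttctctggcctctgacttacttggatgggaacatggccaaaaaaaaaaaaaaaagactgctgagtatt
Over all 32851 RefSeq windows of this length 9.56% held the pattern, and 1 of the 9 member windows did. The E-box pattern CANNTG, bound by myogenic factors among others, was in 5 of 9 member windows and in 66.2% of all windows. The CCAAT box was in 5 of 9 and in 33.8% of all windows, and the direct repeat of AGGTCA with a single base between, a form of the PPAR response element, was in 0 of 9 and in 0.0335% of all windows. In the Pparg window shown, the C/EBP matches overlapped no match of the other patterns. A match is a run of letters and not a measured binding site.

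Lpl, the lipase, had the most negative log2 difference of the 22 probe sets with all 6 arrays. Its brighter probe set read 22.7, 34.5 and 52.5 units in PRDM2 KD replicates 1, 2 and 3, against 88.5, 38.5 and 53.5 units in GFP replicates 1, 2 and 3. The spread came mostly from number 1, where the PRDM2 KD array was the lowest and the GFP array the highest of the 6. The log2 difference was -0.49 (SE 0.31, 95% interval -1.22 to 0.24, limma adjusted p = 1.00), and by pairs it was -1.41, -0.08 and 0.02 for numbers 1, 2 and 3. The second Lpl probe set gave 7.56, 9.12 and 10.73 units in PRDM2 KD replicates 1, 2 and 3, against 25.4, 9.69 and 15.5 units in GFP replicates 1, 2 and 3. Its log2 difference was -0.37 (SE 0.17, limma adjusted p = 1.00), and only GFP replicate 2 kept the groups from separating. Without that array the probe sets stood at -0.72 (SE 0.29, limma adjusted p = 0.466) and -0.53 (SE 0.14, limma adjusted p = 0.249). Without GFP replicate 1 they stood at -0.24 and -0.18.

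Cd36, the fatty acid transporter, spanned 1.64 log2 units over the 6 arrays, the widest range among the members' brightest probe sets. That probe set read 29.7, 37.4 and 10.8 units in PRDM2 KD replicates 1, 2 and 3, against 3.76, 48.5 and 6.78 units in GFP replicates 1, 2 and 3. The highest and the lowest array were both GFP arrays. On another probe set GFP replicates 1 and 3 were again the lowest, with 22.8, 21.1 and 6.29 units in PRDM2 KD replicates 1, 2 and 3, against 2.04, 19.8 and 4.09 units in GFP replicates 1, 2 and 3. The remaining probe set stayed under 16 units throughout, at 1.51 to 8.56 units in PRDM2 KD cells and 1.24 to 8.21 units in GFP cells. The log2 differences were 0.40 (SE 0.47), 0.43 (SE 0.32) and 0.13 (SE 0.18), each with limma adjusted p = 1.00. Without GFP replicate 2 they were 0.91 (SE 0.28), 0.73 (SE 0.25) and 0.29 (SE 0.16), with limma adjusted p = 0.315, 0.371 and 0.645. Without GFP replicate 1 they were 0.094, 0.24 and 0.038. Several readings lay below the offset, and with an offset of 1 in place of 16 the first 2 probe sets stood at 0.99 (SE 0.87) and 1.18 (SE 0.77) with all 6 arrays.

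Fabp3, the fatty acid binding protein of heart and skeletal muscle, was the one member with an unadjusted p under 0.05 in the main fit. That fit took all 6 arrays and all probe sets, with quantile normalization, the offset of 16, default limma settings and no replicate block. The brighter Fabp3 probe set read 113, 93.2 and 79.7 units in PRDM2 KD replicates 1, 2 and 3, against 69.4, 91.6 and 69.1 units in GFP replicates 1, 2 and 3. Each PRDM2 KD array exceeded its same-numbered GFP array, and GFP replicate 2 overlapped the PRDM2 KD range. Fabp3 had a log2 difference of 0.28 here (SE 0.11, 95% interval 0.0085 to 0.55, limma adjusted p = 1.00), and without GFP replicate 2 it was 0.37 (SE 0.11, limma adjusted p = 0.288). Under the deposited scaling the unadjusted limma p was 0.115, and with an offset of 1 it was 0.138. With limma's trend and robust settings it was 0.083, and without dim probe sets it was 0.071. The dimmer Fabp3 probe set did not share this pattern, with 13.3 to 17.99 units in PRDM2 KD cells and 6.85 to 19.3 units in GFP cells. Its difference was 0.05 (SE 0.17) with all 6 arrays and turned to -0.15 (SE 0.09) without GFP replicate 2.

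Fabp4, the fatty acid binding protein of fat cells, was under 16 units on every array for all 4 of its probe sets. The brightest read 10.8, 3.16 and 9.06 units in PRDM2 KD replicates 1, 2 and 3, against 15.1, 3.48 and 11.9 units in GFP replicates 1, 2 and 3. Both arrays numbered 2 were the lowest, and the log2 difference was -0.14 (SE 0.20, 95% interval -0.62 to 0.34). The other 3 probe sets read at most 4.38 units and stood between -0.05 and 0.11. All readings lay below the offset, and with an offset of 1 the 4 probe sets stood at -0.33 (SE 0.56), -0.35 (SE 0.39), -0.04 (SE 0.32) and 0.70 (SE 0.55).

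**Figure D2:**
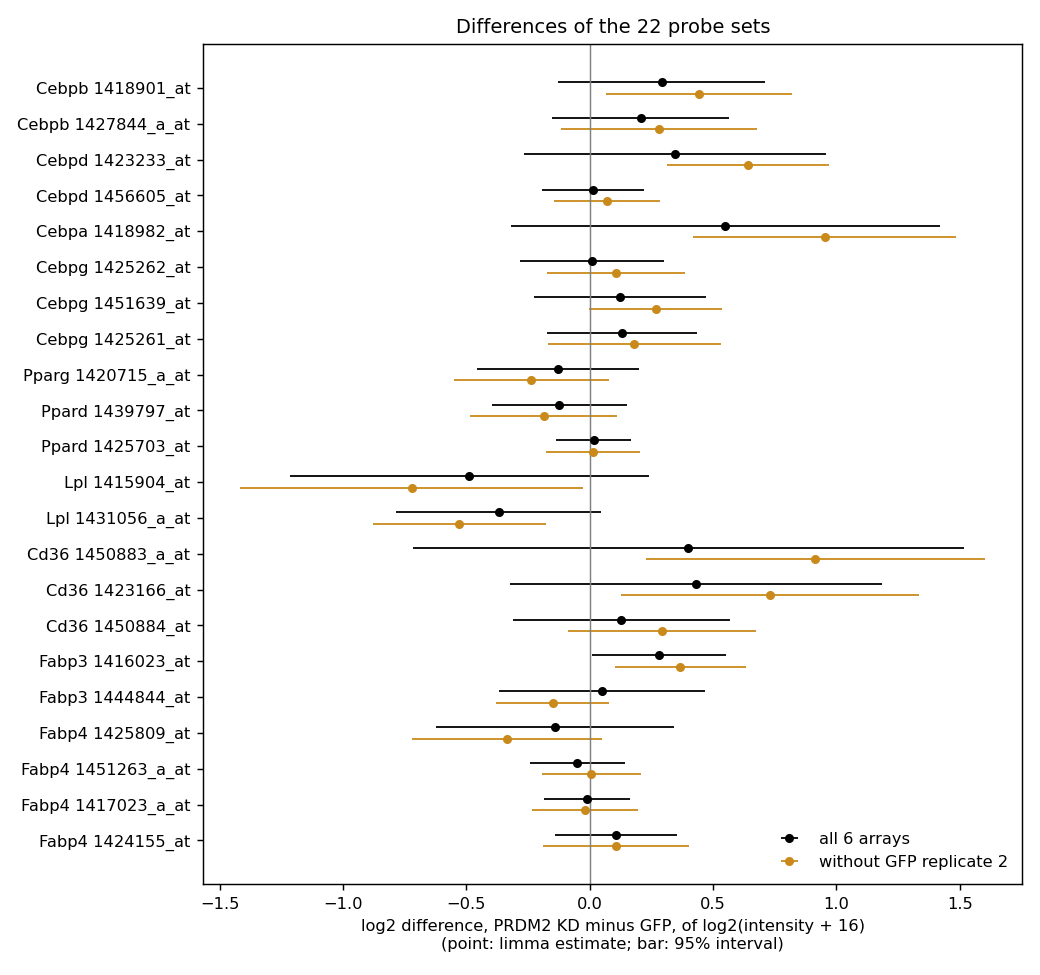
Log2 difference (PRDM2 KD minus GFP) of each of the 22 probe sets with its 95% interval from limma, with all 6 arrays in black and without GFP replicate 2 in ochre. With all 6 arrays the interval of 1 probe set, of Fabp3 at 0.28, lies wholly on one side of 0. Without GFP replicate 2 the estimates for Cebpb, Cebpd, Cebpa and Cd36 lie farther above 0, and those for Lpl and Pparg farther below.

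Leaving out GFP replicate 2 gave no member call either. In that fit 0 of 22 probe sets had an adjusted p under 0.05, against 0.529% of all probe sets, and because the array was singled out with the data known, the p-values of that fit take no account of the choice. At an unadjusted p under 0.05 there were 6 higher probe sets (of Cebpb, Cebpd, Cebpa, Fabp3 and, with 2, Cd36), against 5.09% of all probe sets, and 2 lower ones, both of Lpl, against 5.16%. Every PRDM2 KD array lay above GFP replicates 1 and 3 for 7 probe sets, the same 6 and 1 of Cebpg, against 12.9% of all probe sets. Every PRDM2 KD array lay below them for 3, of Lpl, Fabp3 and Fabp4, against 13.5%. Probe sets of a gene share their target, so these counts are not independent. When each gene was represented by its brightest probe set and adjusted over genes, 0 of the 10 genes passed without GFP replicate 2, against 1.6% of all genes, and Cebpd had the smallest adjusted p, at 0.0907 (limma).

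GFP replicate 2 was nearer to the PRDM2 KD mean than to the mean of GFP replicates 1 and 3 for 20 of the 22 probe sets, beside 65.6% of all probe sets. The 2 exceptions were dim probe sets of Ppard and Fabp4. The PRDM2 KD mean includes PRDM2 KD replicate 2, the array closest to GFP replicate 2. Nearness to that mean is therefore partly built in. Between the arrays numbered 2, the differences of the brightest probe sets of Cebpd, Cebpa, Cd36 and Lpl were -0.02, 0.12, -0.23 and -0.08 log2 units, against 0.54, 0.48, 1.20 and -1.41 between the arrays numbered 1 and 0.52, 1.05, 0.24 and 0.02 between those numbered 3. For Cebpd and Cebpa, numbers 1 and 3 both differed more than number 2, whereas for Cd36 and Lpl only number 1 stood out. What set GFP replicate 2 apart was not tested.

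**Figure D3:**
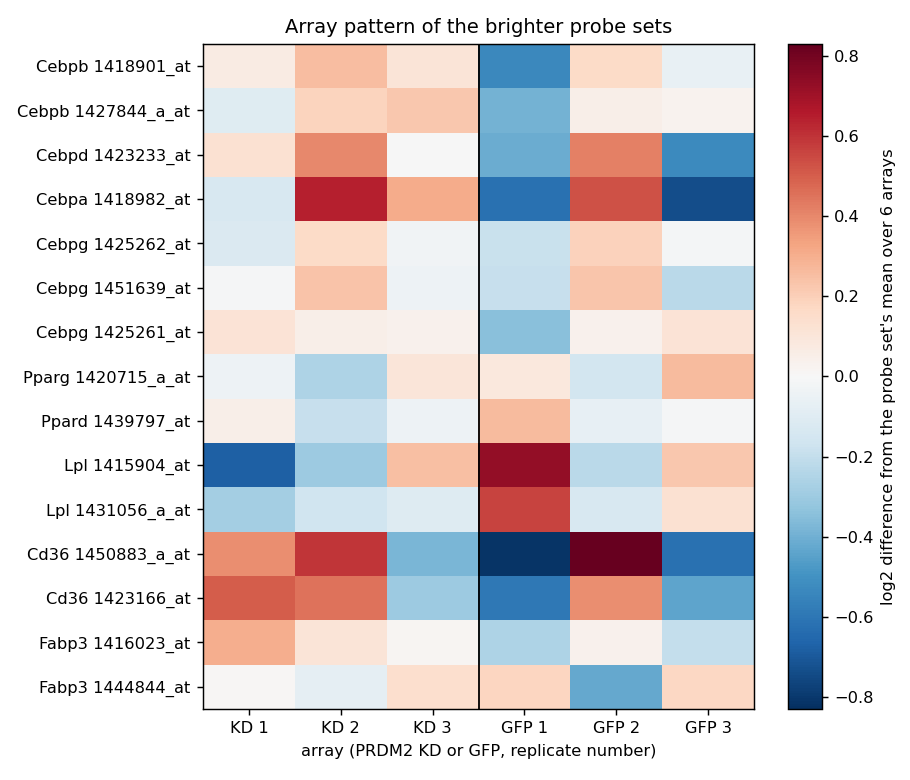
Log2 value of each array minus the probe set's mean over the 6 arrays, for the 15 member probe sets at or above the median probe set, with the PRDM2 KD arrays left of the line and the GFP arrays right of it. The columns of PRDM2 KD replicate 2 and GFP replicate 2 resemble each other, and GFP replicates 1 and 3 are low for Cebpd, Cebpa and the brightest Cd36 probe set.

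Same-numbered arrays deviated together from their group means over all genes, so the fit was repeated with the replicate number as a block. Again 0 of 22 probe sets passed, as did 0% of all probe sets, and the smallest adjusted p of a member was 0.631. At an unadjusted p under 0.05 there were 5 higher member probe sets, both of Cebpb and 1 each of Cebpd, Cebpa and Fabp3, against 3.78% of all probe sets. Their differences are those of the unblocked fit with smaller standard errors, for example 0.55 (SE 0.17) for Cebpa and 0.29 (SE 0.11) for the brighter Cebpb probe set. The pairing was read from these same data, so the p-values of the block fit take no account of that choice. The median absolute deviation between arrays did not show it for number 1. PRDM2 KD replicate 1 stood 0.31 log2 units from GFP replicate 1, against 0.28 from GFP replicate 2 and 0.27 from GFP replicate 3. PRDM2 KD replicates 2 and 3 were each nearest to the GFP array of their number, at 0.07 and 0.19. Whether the close arrays numbered 2 form a separate pair was not tested. All 3 pairs were higher on the PRDM2 KD array for 7 of the 22 probe sets, beside 14.05% of all probe sets, and lower for 4, beside 15.2%. With both arrays numbered 2 left out and the block kept, 0 of 22 passed, against 1.59% of all probe sets, with adjusted p = 0.0646 for Cebpd and 0.0843 for Cebpa (limma).

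The genes most like the members across the 6 arrays were named by Pearson's r, as a description, among the 976 other genes that span at least 1 log2 unit and are at or above the median probe set. For Cebpa these were Olfml3, Itga10 and Selenop, at r of 0.99 each. For Cd36 they were Spata13, Pxn and Abra, also at 0.99, and for Lpl Il18, Cd14 and Mmp23, at 0.97, 0.96 and 0.96. Selenop, the selenium transport protein, read 7.67, 8.58 and 8.40 log2 units in PRDM2 KD replicates 1, 2 and 3, against 6.99, 8.57 and 7.08 in GFP replicates 1, 2 and 3. Its low GFP replicates 1 and 3, shared with Cebpa, follow from its being picked for likeness over these same arrays. The other 7 members spanned too little or were too dim to be compared in this way.

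Other genes of the same pathways gave 0 calls with all 6 arrays, and few without GFP replicate 2. Of 28 measured regulators of fat cell formation, 0 passed either way, with medians of 0.04 with all 6 arrays and 0.06 without GFP replicate 2, beside -0.0033 and -0.012 over all genes. Ebf1, a transcription factor that promotes fat cell formation, stood at -0.99 (SE 0.36) with all 6 arrays, and Ppargc1b, a coactivator of nuclear receptors, at -0.41 (SE 0.23). These were the 2 regulators lower at an unadjusted p under 0.05 without GFP replicate 2, against 5.16% of all probe sets. The 5 higher ones were Klf4, Klf5, Rxra, Gata2 and Trib2, against 5.09%. With both arrays numbered 2 left out and the replicate block, 1 regulator passed the threshold higher and 2 lower. In that fit 717 of the 45033 probe sets (1.59%) passed, 405 higher and 312 lower. Like the 5.09% and 5.16%, this share is over probe sets not reduced to 1 a gene. With all 6 arrays, 1 of 28 regulators and 3 of 18 genes of fatty acid uptake and activation had an unadjusted p under 0.05. The counts were 0 of 23 for lipid droplets and triglyceride turnover and 2 of 17 for fatty acid oxidation, against 3.72% of all genes.

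Without GFP replicate 2, 1 gene passed in each of the other 3 lipid lists and all 3 rose, against 0.456% of all genes higher. Lrp1, a receptor that takes up lipoproteins, rose by 0.67 (SE 0.09, limma adjusted p = 0.0464). With all 6 arrays its groups did not overlap. Of the 18 genes of uptake and activation, 2 lay wholly higher there, Lrp1 among them, and 1 wholly lower. Over all probe sets 3.18% lay wholly higher and 4.06% wholly lower. G0s2, an inhibitor of triglyceride breakdown, rose by 1.15 (SE 0.14, limma adjusted p = 0.0379). Acaa2, a thiolase of mitochondrial fatty acid oxidation, rose by 0.92 (SE 0.10, limma adjusted p = 0.0338). With all 6 arrays these 3 stood at 0.49 (SE 0.16), 0.75 (SE 0.32) and 0.61 (SE 0.25), each with limma adjusted p = 1.00. The medians of the 3 lists without GFP replicate 2 were 0.01 for uptake and activation, -0.00089 for lipid droplets and -0.06 for oxidation, and with all 6 arrays 0.01, 0.03 and -0.12. At an unadjusted p under 0.05 without GFP replicate 2, 5.09% of all probe sets, not reduced to 1 a gene, were higher and 5.16% lower. Among 18 genes of uptake and activation, 4 were higher and 1 was lower. Among 23 genes of lipid droplets, 2 were higher and 4 lower. Among 17 genes of oxidation, 1 was higher and 3 were lower. One of these, picked after its values were seen, was Acadm, a dehydrogenase of mitochondrial fatty acid oxidation. Acadm stood at -0.82 (SE 0.13, limma adjusted p = 0.0756), and at -0.60 (SE 0.20) with all 6 arrays, where its groups did not overlap. Of the 17 genes of oxidation, 2 lay wholly lower with all 6 arrays, Acadm among them, and 0 wholly higher.

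Markers of other cell types that make Pparg, Cd36, Lpl or Fabp4 gave the following levels. In the summed log2 levels a gene adds 4 units even at a reading of 0, so sums of dim lists say little of their markers. Of 8 macrophage markers 6 were under 16 units on all arrays, Cd68, Ptprc, Itgam and Lyz2 among them, and the summed log2 level of the list was 37.4 to 39.1 in PRDM2 KD cells and 36.9 to 38.7 in GFP cells. The exceptions Csf1r and Adgre1 stood at -0.12 (SE 0.43) and 0.03 (SE 0.20). Of 6 endothelial markers 5 were under 16 units on all arrays, Pecam1 and Cdh5 among them, and the list summed to 26.2 to 27.3 in PRDM2 KD cells and 25.8 to 27.6 in GFP cells. The fat cell markers summed to 32.4 to 33.4 in PRDM2 KD cells and 32.5 to 33.4 in GFP cells. Of 6 measured preadipocyte and mesenchymal progenitor markers, summing to 27.1 to 28.4 in PRDM2 KD cells and 27.4 to 28.5 in GFP cells, 1 fell without GFP replicate 2, against 0.407% of all genes lower. It was Cd34, a surface protein of progenitors, with 1.57, 3.46 and 4.96 units in PRDM2 KD replicates 1, 2 and 3, against 37.9, 3.26 and 27.0 units in GFP replicates 1, 2 and 3 (-1.33, SE 0.13, limma adjusted p = 0.0249). With all 6 arrays Cd34 stood at -0.89 (SE 0.36, limma adjusted p = 1.00). Other progenitor markers, picked after their values were seen, had the opposite sign without GFP replicate 2, with Pi16 at 0.72 (SE 0.14, limma adjusted p = 0.118) and Pdgfra at 0.78 (SE 0.27, limma adjusted p = 0.382). The part of these cell types in the values of the member genes was not tested. Skeletal muscle markers summed to 108.6 to 109.5 in PRDM2 KD cells and 106.0 to 109.0 in GFP cells, with 0 of 10 past the threshold either way. With all 6 arrays the medians were 0.02 for fat cell, 0.05 for progenitor, 0.0023 for macrophage, 0.02 for endothelial and 0.13 for muscle markers. Among the genes at or above the median probe set in the lists with no gene past the threshold, those of smallest p included Slc2a4 at 0.03 (SE 0.14), Retn at 0.13 (SE 0.34), Emcn, an endothelial sialomucin, at -0.19 (SE 0.39), Mymk, which drives myoblast fusion, at 0.34 (SE 0.23) and Tnnt1, a slow muscle troponin, at 0.17 (SE 0.09).

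**Figure D4:**
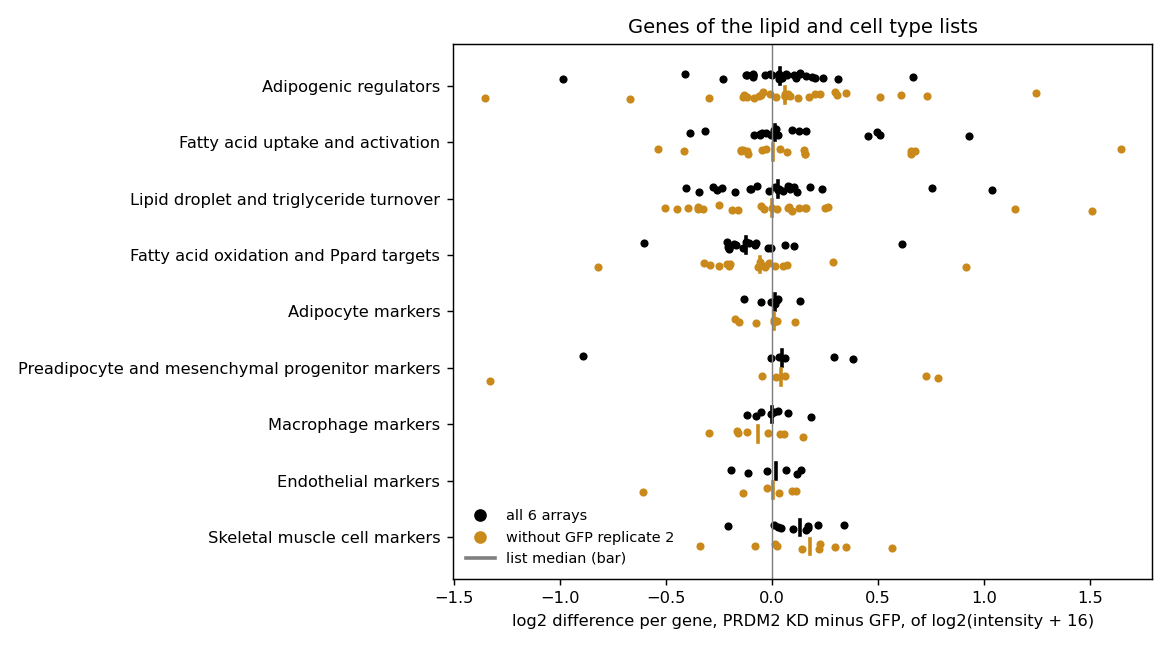
Log2 difference (PRDM2 KD minus GFP) of each measured gene of the 9 lists, with all 6 arrays in black and without GFP replicate 2 in ochre, and each list's median as a bar; vertical jitter within a row carries no meaning. The medians lie between -0.12 and 0.18, and single genes spread more widely without GFP replicate 2.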

How the data were processed

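RNA of 6 C2C12 cultures, extracted with Trizol and labelled with biotin from 8 ug of total RNA per the labels' protocols, was hybridised to 1 Affymetrix mouse array each. The intensity values the authors deposited are linear, 1 for each probe set and array. GCOS and PLIER are named, with no role or order, per the submitters' processing notes, and the scaling between arrays and the genome build are not given in the sources used here. Array medians were 10.7 to 11.4 units. Of 45101 probe sets, 64 controls and 4 of Gngt1 that held that gene's Entrez number as a value on the array of GFP replicate 2 were left out, and there were 0 further sample columns. The annotation of the platform names 1 gene for 34941 probe sets and several for 932, and 9160 are unnamed here.

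Values were log2(intensity + 16). Quartiles of the 6 arrays differed by up to 0.15, above the 0.1 set for keeping the deposited scaling, so quantile normalization was used. Groups were taken from the titles, and R 4.3.3 with limma 3.58.1 gave the tests (lmFit, eBayes, two-sided), adjusted by Benjamini-Hochberg over all 45033 probe sets at a threshold of 0.05. The procedure was tested on simulated data. Deviations from the group means correlated at 0.34, 0.59 and 0.66 between same-numbered arrays over 18192 genes, so the replicate number was read as a pairing, from the data and not from the labels. All members were named. Of the 9 lists, with 135 genes of which 121 were measured and each represented by its brightest probe set, the genes named were up to 3 past the threshold with all arrays or without GFP replicate 2, or otherwise the 2 of smallest p that are not dim. The members and lists were chosen with earlier results of these data known. Nothing in the labels says whether replicates were separate cultures beyond calling them biological, so p-values measure the spread between these samples.

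The fit was repeated with the scaling as deposited, with centring on medians, with an offset of 1 or 64, without dim probe sets, with 1 probe set a gene, trend and robust settings, the replicate block, leaving out each array, leaving out both arrays numbered 2 with and without the block, and, added after seeing the data, 1 probe set a gene without GFP replicate 2.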

Additional observations from a re-analysis of the deposited data

How the results depend on the processing

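The count of member probe sets past the threshold was 0 with all 6 arrays and in each of the 17 alternatives. Counts over all probe sets were 0 with all 6 arrays and 57 with both arrays numbered 2 left out. They were 717 with those 2 arrays left out and the replicate block, and 0 with the replicate block alone (3531 at an unadjusted p under 0.05, against 1326 without it). Leaving out each array gave 0 to 238, the 238 being without GFP replicate 2. For the list genes, leaving out each array gave 0 to 4, the 4 being without GFP replicate 2, and both arrays numbered 2 left out with the block gave 9. With 1 probe set a gene, without GFP replicate 2, an alternative chosen after seeing the data, 291 genes passed, 5 of them in the lists. These counts compare fewer arrays, and the cause was not tested. Of 343 member values under alternatives, 326 kept their sign, and 0 crossed the threshold. The 17 that turned came from 7 probe sets, 4 of them of Fabp4 or Cebpd and at most 15.1 units bright, and the turned values lay between -0.15 and 0.031. Leaving out each array gave the dim Cebpd probe set -0.031 to 0.071, below 0 without GFP replicate 1, without GFP replicate 3 (-0.00093) and without PRDM2 KD replicate 3 (-0.029). It gave Cebpg's brightest -0.081 (without GFP replicate 1) to 0.11, with -0.069 without PRDM2 KD replicate 2, and that probe set stood at -0.015 with the deposited scaling and -0.017 with median centring. Cebpg's dimmest ran between -0.0082 (without GFP replicate 1) and 0.22. Fabp3's dimmer ran between -0.15 (without GFP replicate 2) and 0.15, with -0.0081 without PRDM2 KD replicate 3, and stood at -0.10 with both arrays numbered 2 left out, with or without the replicate block. Of the Fabp4 probe sets, the brightest ran between -0.33 and 0.0052 (without GFP replicate 1), another between -0.085 and 0.0060 (without GFP replicate 2), and another between -0.040 and 0.031 (without GFP replicate 1), with 0.0026 and 0.0039 without PRDM2 KD replicates 1 and 2. The offset set the size of dim probe sets, and 7 of the 22 stayed under 16 units on all 6 arrays, which limits what can be said of them.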
